A study of Mus musculus with 17 samples.

Results

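Lung RNA of humanized PPARα mice (KI) that drank perfluorooctanoic acid (PFOA), a long-chain perfluoroalkyl acid, was compared with that of KI mice on vehicle. The comparison used the 6 libraries labelled hPPARa KI among the 17 lung libraries of the series, with 1 library per mouse. The 3 KI PFOA libraries (57, 80 and 139) came from mice given 6.2 μg/mL PFOA in drinking water for 14 weeks, and the 3 KI vehicle libraries (102, 116 and 135) from mice given water with 0.5% sucrose for the same time. All mice ate a custom diet that began at 6 weeks of age. Each group held 1 male (57 and 102) and 2 females.

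KI mice carry the human form of PPARα in place of the mouse receptor. KI mice and the PPARα-null mice (KO) came from breeding pairs that were null for the mouse gene and heterozygous for the human gene, whereas wild-type Sv/129 mice (WT) were purchased, so that WT differed from the other genotypes in origin as well as in the receptor. Whole lung was homogenized, and in such bulk tissue fewer cells of a type and less RNA per cell cannot be told apart.

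PPARα is a nuclear receptor that binds fatty acids, pairs with the retinoid X receptor and switches on genes of fatty acid transport, oxidation and ketone synthesis. Its best known role is in the fasting liver, and in the lung its RNA is found in several cell types. PFOA activates PPARα, and the human and mouse receptors are known to differ in their response to such compounds.

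The table held 31245 genes, of which 26946 had a total of 20 or more counts over the 17 libraries, and 26073 of these lay on autosomes. Total counts of the KI libraries ranged from 6198574 to 9027271, so that 3 counts corresponded to 0.332 to 0.484 CPM, the unit used throughout, which scales a count to the total of its library and, for levels of genes, by TMM factors. The labelled sex matched X- and Y-linked transcripts in all 6 KI libraries. Mouse Ppara, the targeted gene, was at 15.3, 15.3 and 12.7 CPM in the KI vehicle libraries 102, 116 and 135 and at 20.4, 14.9 and 9.08 CPM in the KI PFOA libraries 57, 80 and 139. It had a mean of 10.4 CPM in the KO and 6.67 CPM in the WT vehicle libraries, so its level did not check the labels KI and KO, which stand here as the labels give them. Lung markers were present in every KI library: Sftpc of type 2 cells was at 2040 CPM or more, Ager of type 1 cells at 717 CPM or more, and Pecam1 of endothelium at 450 CPM or more.

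KI vehicle library 102 stood apart from the other 5. It lay at -46.5 on the first principal component of the KI libraries, against -11.2 to 31.3 for the others, and that component held 33.2% of the variance. It also had the most RNA of heart and fat. Nppa, the atrial natriuretic peptide, was at 215 CPM in library 102 and at no more than 1.83 CPM in the others, and Lep, the leptin gene of adipocytes, was at 20.5 CPM against no more than 2.17 CPM. The 9 cardiac muscle markers tested summed to 7904 CPM in library 102 and 6617 CPM in PFOA library 57, which are both from males, and to between 628 and 2470 CPM in the 4 females. The exposed and vehicle libraries were not separated on this component.

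No gene of the KI comparison passed the call rule, which asked for a fold over 2 with an adjusted p below 0.2. edgeR's quasi-likelihood test called 0 of the 26073 autosomal genes (0%), and 678 genes (2.6%) had an unadjusted p under 0.05, of which 383 (1.47%) were higher and 295 (1.13%) lower on PFOA. DESeq2 without filters called 1 gene (0.00384%), Mfsd2a, and had 559 genes (2.14%) at an unadjusted p under 0.05. Both shares, 2.6% and 2.14%, are smaller than this threshold gives where no gene differs, so these counts are not an excess of genes. In 1 simulated draw of counts with no change, edgeR made 1 call and DESeq2 4. That draw used a spread set by the level of the gene and held no outlying library, so it does not give the rate of false calls in these data. The libraries of the exposed and vehicle groups did not overlap for 1160 genes (4.45%) that were higher and 989 genes (3.79%) that were lower on PFOA. The median log2 fold change over all autosomal genes was 0.01. With 3 libraries against 3, an exact two-sided permutation test of 1 gene cannot go below p = 0.1. The genes below are therefore given with their values in each library, and words such as higher and lower refer to those values and not to a passed test. For the genes named for the smallest unadjusted p per direction, the rule took only genes with separate groups. Their separation was a condition of that choice and is not a further result. Values are listed in the order 102, 116 and 135 for vehicle and 57, 80 and 139 for PFOA, and log2 fold changes are from the edgeR fit with their standard error (SE).

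**Figure D1:**
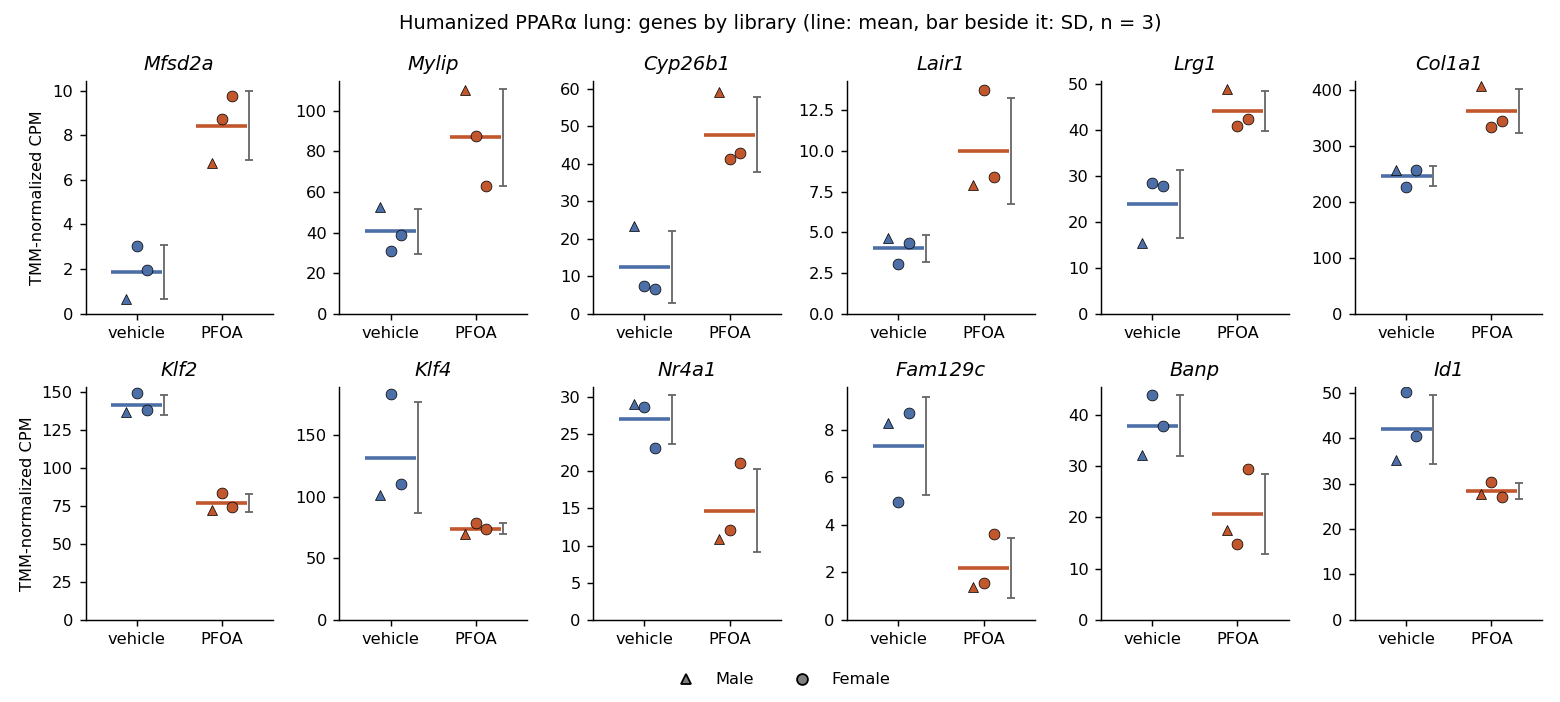
TMM-normalized CPM (linear axis from 0) of 12 genes in the 3 KI vehicle and 3 KI PFOA libraries. Triangles are males and circles females, horizontal lines are group means and the bar beside them the SD (n = 3). The top row holds genes that were higher and the bottom row genes that were lower on PFOA, and in each panel all 3 PFOA libraries lie on one side of the vehicle libraries. For all genes shown but Nr4a1, this separation was a condition of the naming rule.

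Mfsd2a (ENSMUSG00000028655, mm10 chromosome 4, 122946850 to 122961188) encodes a transporter that carries lysophospholipids with long-chain polyunsaturated fatty acids into cells. It was at 0.637, 3.05 and 1.97 CPM on vehicle and at 6.74, 8.74 and 9.78 CPM on PFOA. The groups did not overlap, and the lowest exposed library was more than 2-fold above the highest vehicle library. The log2 fold change was 2.11 (SE 0.39, adjusted p = 0.904 from edgeR and 0.0162 from DESeq2). It stayed between 1.73 and 2.64 when any 1 KI library was left out, and over the alternatives the adjusted p ranged from 0.0162 to 1.

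Mylip and Abca1 were further lipid genes with an unadjusted p under 0.05. Mylip (ENSMUSG00000038175, chromosome 13, 45389742 to 45412022), a ubiquitin ligase that limits the uptake of lipoproteins into cells, was at 52.5, 30.7 and 38.8 CPM on vehicle and at 110, 87.4 and 62.9 CPM on PFOA, a log2 fold change of 1.10 (SE 0.26, adjusted p = 1, edgeR). Every exposed library was above every vehicle library. Abca1, which exports cholesterol from cells, was at 176, 189 and 167 CPM on vehicle and at 402, 307 and 163 CPM on PFOA. Library 139 lay below all vehicle libraries, so that the groups overlapped (log2 fold change 0.71, and 0.40 without library 57). Mylip and Abca1 belong to a list of 10 genes related to LXR, the sterol-sensing nuclear receptor, which includes the receptor genes Nr1h3 and Nr1h2. Of the 10, Mylip and Abca1 were higher and 0 lower at an unadjusted p under 0.05, where 1.47% of all genes were higher. The median log2 fold change of that list was 0.29, and 0.08 without library 57.

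Fatty acid synthesis genes had no member with an unadjusted p under 0.05, but 18 of the 21 tested had a log2 fold change above 0 (median 0.16), and 3 had exposed libraries above all vehicle libraries, where 4.45% of all genes did. Scd1, the desaturase that makes monounsaturated fatty acids, was at 798, 927 and 668 CPM on vehicle and at 1224, 1357 and 1377 CPM on PFOA (log2 fold change 0.73, SE 0.37). Its relative Scd2 was at 481, 520 and 402 CPM and at 784, 656 and 556 CPM, and Srebf1, the transcription factor of the pathway, was at 69.7, 65.4 and 62.8 CPM and at 78.5, 80.4 and 77.3 CPM. The summed level of the 21 genes was 2301 to 2851 CPM on vehicle and 3320 to 3606 CPM on PFOA. The mean over the genes of the level on the log2 scale, in which each gene counts alike, overlapped between groups, at 5.84, 5.67 and 5.55 on vehicle and 5.93, 5.82 and 5.75 on PFOA. The 21 cholesterol synthesis genes tested had a median log2 fold change of 0.16.

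PPARα target genes were neither higher nor lower as a list. Of the 22 tested, 0 had an unadjusted p under 0.05 in either direction, 0 had groups that did not overlap, and 9 had a log2 fold change above 0 (median -0.08). The 20 genes of fatty acid oxidation likewise had 0 members at an unadjusted p under 0.05, with a median of -0.12. The exposed libraries were unlike each other for several of these genes. Pdk4, a kinase that shuts down glucose oxidation, was at 42.7, 100.4 and 63.0 CPM on vehicle and at 181, 74.1 and 6.29 CPM on PFOA. Angptl4, an inhibitor of lipoprotein lipase, was at 35.7, 82.7 and 66.4 CPM and at 76.3, 66.7 and 9.22 CPM. In both genes library 139 was the lowest of the 6. Cpt1a, which brings fatty acids into mitochondria, was at 140 to 151 CPM in 5 libraries and at 79.5 CPM in library 139. These 3 genes were chosen after their values were seen.

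Library 139 was the lowest of the 6 for 13 of the 22 PPARα target genes, whereas it was the lowest for 15.1% of the 18419 autosomal genes with a mean of at least 1 CPM. Without library 139 the median of the list was 0.11, and without library 57, in which 0 of the 22 genes were lowest, it was -0.34. Library 139 also had the lowest sum of glucocorticoid target genes, at 652 CPM, while the other exposed libraries were at 1695 and 1742 CPM and the vehicle libraries at 807, 2040 and 1210 CPM. Pdk4 is on both lists. Ppara itself was lowest in library 139, and so was the share of counts in protein-coding genes, at 74.4% against 76.2 to 78.5% in the other 5. The part of these differences in the median of the list was not tested.

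**Figure D2:**
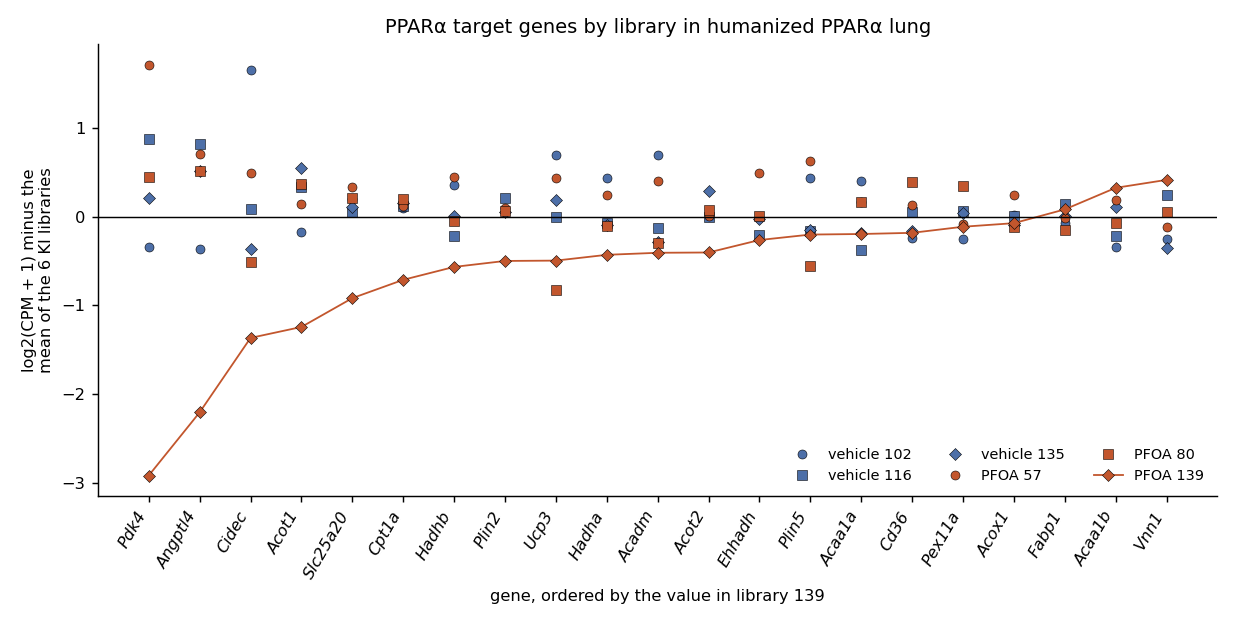
Log2(CPM + 1) of 21 of the 22 PPARα target genes in each KI library minus the mean of the 6 libraries, with genes ordered by the value in PFOA library 139 (joined by a line). Blue symbols are vehicle and orange symbols PFOA libraries. Library 139 lies lowest for 12 of the 21 genes plotted, and for no gene do all 3 exposed libraries lie on one side of the vehicle libraries.

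Immediate early genes are transcribed within minutes of a stimulus such as a growth factor, shear stress or handling of tissue. Of the 21 tested, 8 were lower on PFOA and none was higher at an unadjusted p under 0.05, where 1.13% of all genes were lower. Groups that did not overlap were found for 5 of the 21, all lower, where 3.79% of all genes were, and the groups of the other 16 overlapped. A log2 fold change below 0 was found for 18, and Fosb, Ier3 and Egr3 were above 0. The median was -0.34, or -0.17 without library 116 and -0.20 without library 57, and the summed levels nearly touched, at 1276 to 1877 CPM on vehicle and 1097 to 1275 CPM on PFOA. The 8 genes were Nr4a1, Nr4a2, Nr4a3, Dusp1, Zfp36, Btg2, Klf2 and Klf4. None passed the adjusted threshold.

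Many such genes are switched on through CREB, a factor that binds the letters TGACGTCA or the shorter core TGACG next to the start of transcription. To show what these promoters hold, the 250 bases before the RefSeq start are printed for 3 of the genes, 5′ to 3′ on the strand of the gene (GRCm38.p6, the assembly of mm10), with TGACG or its reverse complement CGTCA in capitals, so that the full TGACGTCA is in capitals throughout. Klf2 lies at chr8:72318812-72319061 (plus strand), Nr4a3 at chr4:48045055-48045304 (plus strand) and Dusp1 at chr17:26508473-26508722 (minus strand).
Klf2: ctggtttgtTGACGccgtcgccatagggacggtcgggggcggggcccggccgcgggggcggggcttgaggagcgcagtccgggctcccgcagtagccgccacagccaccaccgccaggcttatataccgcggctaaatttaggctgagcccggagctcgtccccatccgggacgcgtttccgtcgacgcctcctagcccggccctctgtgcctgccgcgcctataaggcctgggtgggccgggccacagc
Nr4a3: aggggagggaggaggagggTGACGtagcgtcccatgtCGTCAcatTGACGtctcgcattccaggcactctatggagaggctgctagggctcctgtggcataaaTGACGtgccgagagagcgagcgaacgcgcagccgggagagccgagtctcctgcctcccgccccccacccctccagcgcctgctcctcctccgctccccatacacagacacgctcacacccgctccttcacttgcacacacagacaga
Dusp1: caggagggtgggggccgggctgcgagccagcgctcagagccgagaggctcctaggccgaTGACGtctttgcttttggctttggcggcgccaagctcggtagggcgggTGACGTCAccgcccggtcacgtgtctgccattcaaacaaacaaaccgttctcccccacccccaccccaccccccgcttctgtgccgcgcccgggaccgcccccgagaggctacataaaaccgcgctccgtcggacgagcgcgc
The Klf2 window held TGACG on either strand 1 time, that of Nr4a3 4 times and that of Dusp1 3 times, of which 1 pair forms the full TGACGTCA. TGACG on either strand was found in the windows of 7 of the 8 lower genes (all but Zfp36), of 12 of the 17 members of the list that had a RefSeq promoter, and of 25.9% of the 14435 autosomal genes tested that had one. The full TGACGTCA was found for Dusp1 and Btg2, and for 2.55% of the 14435. These matches describe letters and not binding.

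Klf2 (ENSMUSG00000055148, chromosome 8, 72319033 to 72321656), a transcription factor that keeps endothelium and T cells quiescent and responds to blood flow, was at 137, 149 and 138 CPM on vehicle and at 72.5, 83.8 and 74.5 CPM on PFOA. Both groups were tight, and the highest exposed library was far below the lowest vehicle library. The log2 fold change was -0.88 (SE 0.20, adjusted p = 1 from edgeR and 0.283 from DESeq2). Klf4 (ENSMUSG00000003032, chromosome 4, 55527143 to 55532466), its relative in endothelium and epithelium, was at 102, 183 and 110 CPM on vehicle and at 69.6, 78.8 and 73.9 CPM on PFOA, a log2 fold change of -0.83 (SE 0.23). Here the vehicle libraries were spread, and without library 116, the highest, the value was -0.52.

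The NR4A genes encode 3 orphan nuclear receptors. Nr4a1 was at 29.1, 28.6 and 23.2 CPM on vehicle and at 10.8, 12.1 and 21.1 CPM on PFOA, with no overlap. Nr4a2 was at 5.89, 13.4 and 8.29 CPM and at 5.71, 6.04 and 4.61 CPM. Nr4a3 was at 13.8, 91.9 and 23.6 CPM and at 15.2, 28.5 and 15.4 CPM, so that library 116 made the difference. Its log2 fold change was -1.14 (SE 0.48), and 0.060 without library 116.

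The remaining 3 genes restrain signaling and growth. Dusp1, a phosphatase that turns off MAP kinases, was at 118, 271 and 149 CPM on vehicle and at 97.8, 138 and 86.6 CPM on PFOA. Zfp36, which binds and destabilizes cytokine messages, was at 68.6, 87.6 and 85.6 CPM and at 58.2, 73.7 and 61.5 CPM. Btg2, an antiproliferative gene, was at 98.9, 151 and 114 CPM and at 93.7, 94.4 and 96.8 CPM. The groups overlapped for Dusp1 and Zfp36, while for Btg2 they were separate. Without library 116 the log2 fold changes of Nr4a2, Dusp1 and Btg2 went from -0.76, -0.74 and -0.35 to -0.39, -0.33 and -0.17. Without library 116 the median of the whole list was -0.17. Library 116 also had the highest sum of glucocorticoid targets among the 6 libraries, a list that shares Dusp1, and the part of this in the result was not tested. The classical members Fos (log2 fold change -0.34, SE 0.37) and Egr1 (-0.09, SE 0.34) had SEs as large as their values or larger. The 16 endothelial markers had a median of 0.12, with 1 higher (Vwf) and 0 lower at an unadjusted p under 0.05, where 1.47% of all genes were higher. Genes on the opposite strand overlap Dusp1 and Zfp36, and how the counting used strand is not given in the sources used here.

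**Figure D3:**
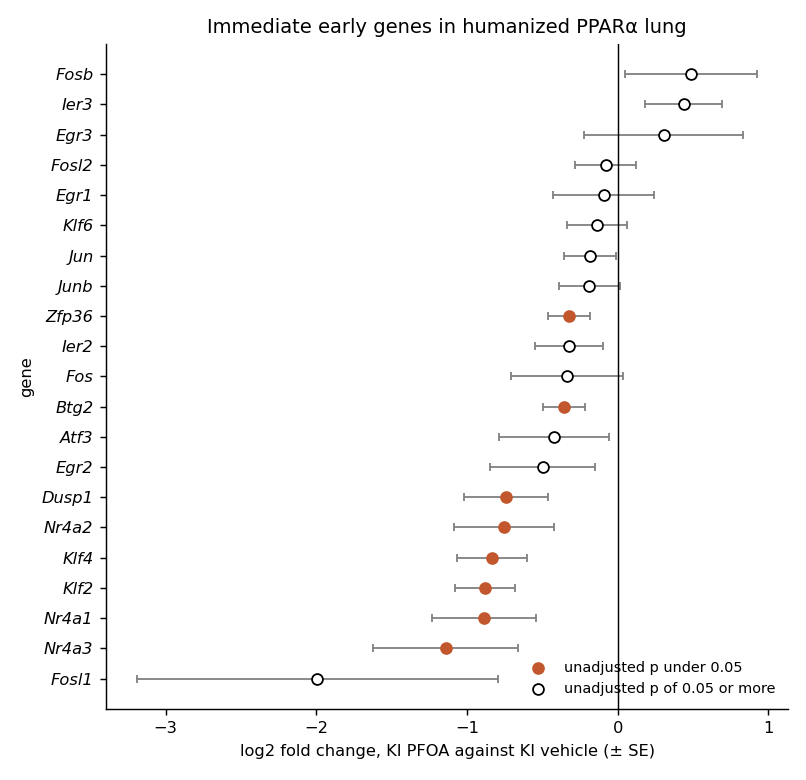
Log2 fold change (KI PFOA against KI vehicle, ± SE from the edgeR fit) of the 21 immediate early genes tested, ordered by value. Filled points mark the 8 genes with an unadjusted p under 0.05, all below 0, and open points the other 13 genes, of which Fosb, Ier3 and Egr3 lie above 0.

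The other genes with the smallest unadjusted p on the lower side have varied roles. Fam129c, a gene known from B cells, was at 8.28, 4.96 and 8.72 CPM on vehicle and at 1.37, 1.54 and 3.63 CPM on PFOA (log2 fold change -1.75, SE 0.41). The 15 B and plasma cell markers summed to 605, 180 and 351 CPM on vehicle and to 214, 241 and 311 CPM on PFOA, and their median log2 fold change was -0.62, or 0.03 without library 102; their part in the value of Fam129c was not tested. Banp, which encodes a nuclear DNA-binding protein, was at 32.2, 43.9 and 37.8 CPM on vehicle and at 17.5, 14.9 and 29.5 CPM on PFOA (log2 fold change -0.89, SE 0.23). It was called by edgeR, at -1.23 (adjusted p = 0.176), when library 139 was left out. Id1, an inhibitor of helix-loop-helix factors that BMP signaling switches on, was at 35.3, 50.1 and 40.5 CPM on vehicle and at 27.9, 30.3 and 27.1 CPM on PFOA (log2 fold change -0.56, SE 0.15).

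Adamts1, a matrix metalloprotease, was at 131, 201 and 166 CPM on vehicle and 108, 102 and 121 CPM on PFOA. The ubiquitin ligase gene Trim65 was at 28.2, 38.7 and 36.3 CPM and at 20.3, 22.4 and 25.9 CPM. Tnfrsf10b, the TRAIL death receptor, was at 15.6, 28.6 and 17.996 CPM and at 12.1, 14.0 and 13.8 CPM. In each of these 3 genes the groups were separate, as the naming rule required, and the log2 fold changes were -0.59, -0.59 and -0.64. Without library 116 that of Tnfrsf10b was -0.35. Library 116 was the highest of the vehicle libraries for all 3, as it was for 7 of the 8 immediate early genes described above (all but Nr4a1). The other protein-coding genes that the naming rule took on this side were Tcim, Gm49391, Btbd9, 2700081O15Rik, Phtf2, Lyar and Gstp2, with log2 fold changes between -2.09 and -0.40. Gstp2 has near-identical relatives, and its counts are uncertain for that reason. Banp, Tcim and 2700081O15Rik overlap genes of the opposite strand.

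On the higher side, Cyp26b1 (ENSMUSG00000063415, chromosome 6, 84571414 to 84593908), an enzyme that degrades retinoic acid, was at 23.4, 7.26 and 6.61 CPM on vehicle and at 59.3, 41.4 and 42.8 CPM on PFOA. Within each group the male library was the highest, and every exposed library was above every vehicle library. The log2 fold change was 1.96 (SE 0.52, adjusted p = 1, edgeR). In a fit of the 6 KI libraries alone with sex as a covariate, which was chosen after the values were seen, it passed at 2.12 (adjusted p = 0.0283, edgeR), as did Mylip at 1.10 (adjusted p = 0.130), Plin1 at -2.84 and Gm45315 at -6.41 (adjusted p = 0.0283 each).

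Genes of immunity and the acute phase formed part of this side. Lair1, an inhibitory receptor on leukocytes that binds collagen, was at 4.62, 3.05 and 4.36 CPM on vehicle and at 7.88, 13.7 and 8.38 CPM on PFOA (log2 fold change 1.32, SE 0.33). Lrg1, a secreted glycoprotein of the acute phase, was at 15.4, 28.5 and 27.8 CPM and at 49.0, 40.9 and 42.5 CPM (0.88, SE 0.23). The iron-chelator carrier Lcn2 was at 10.2, 25.8 and 25.6 CPM and at 33.3, 47.8 and 36.2 CPM (0.92, SE 0.31). The groups were separate for all 3 genes. Serpina3g, a protease inhibitor of leukocytes, was at 2.39, 6.11 and 4.08 CPM and at 9.82, 24.4 and 4.89 CPM, with overlap. With Lcn2 and Lrg1 it made 3 of 15 acute phase genes that were higher at an unadjusted p under 0.05, and 0 were lower, where 1.47% of all genes were higher. The median of the list was 0.18, and 0.062 without library 102. Without library 80 Serpina3g went from 1.62 to 0.80, and without library 102 Lcn2 was at 0.60. Ripk3, the kinase of necroptosis, was at 1.91, 2.93 and 2.25 CPM and at 5.02, 5.14 and 4.89 CPM (1.07, SE 0.34). It was the only 1 of 16 inflammasome and pyroptosis genes with an unadjusted p under 0.05. Nlrp3, the sensor of that pathway, was at 7.004, 3.44 and 3.51 CPM and at 5.25, 3.85 and 6.85 CPM, and Aim2, a sensor of cytosolic DNA, at 5.09, 1.65 and 4.64 CPM and at 2.51, 6.42 and 8.52 CPM. The groups overlapped in both.

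Interferon response genes had a log2 fold change above 0 in 19 of 22 (median 0.33), and 2 of them, Oas1a and Gbp3, were higher at an unadjusted p under 0.05 (1.47% of all genes were). The median was 0.14 without library 80 and 0.58 without library 57. Library 57 was the lowest of the 6 for 11 of the 20 members with a mean of at least 1 CPM. The summed levels overlapped, at 354 to 496 CPM on vehicle and 373 to 599 CPM on PFOA. Oas1a, a sensor of double-stranded RNA, was at 3.34, 4.58 and 4.22 CPM on vehicle and at 4.45, 6.81 and 10.1 CPM on PFOA (0.80, and 0.47 without library 139). H2-T23, a nonclassical MHC class I gene, was at 79.9, 57.5 and 59.6 CPM and at 85.5, 119 and 104 CPM, and Cxcl13, a B cell chemokine, at 2.87, 0.891 and 2.39 CPM and at 8.56, 3.21 and 4.47 CPM. Both had separate groups, and the log2 fold change of Cxcl13 was 1.42, or 0.92 without library 57. H2-T23 belongs to a family of similar genes, between which the counting could have split reads.

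Matrix genes had small log2 fold changes of mostly one sign. Of 23 collagen and matrix genes tested, 22 had a log2 fold change above 0 (median 0.26), 2 were higher and 0 lower at an unadjusted p under 0.05 (1.47% of all genes were higher), and 5 had exposed libraries above all vehicle libraries (4.45% of all genes). The summed levels overlapped, at 5306 to 5833 CPM on vehicle and 5359 (library 139) to 7440 CPM on PFOA. The median was 0.19 without library 80 and 0.39 without library 139. Col1a1 (ENSMUSG00000001506, chromosome 11, 94936224 to 94953042), a chain of type I collagen, was at 257, 226 and 258 CPM on vehicle and at 408, 335 and 345 CPM on PFOA (0.55, SE 0.17). Mmp2, a gelatinase, was at 53.0, 56.5 and 58.8 CPM and at 108, 63.3 and 70.0 CPM, with the male library 57 well above the others (0.52, and 0.25 without it). Col1a2, the partner chain of Col1a1, was at 376, 295 and 320 CPM and at 442, 331 and 337 CPM, with overlap (0.17, SE 0.19). The 12 fibroblast markers had 0 members at an unadjusted p under 0.05 and a median of 0.05, with values from -0.079 to 0.077 when each KI library was left out.

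Further genes of the higher side had narrow groups. Gas7, a cytoskeletal gene, was at 55.7, 51.9 and 69.5 CPM on vehicle and at 87.9, 86.9 and 85.9 CPM on PFOA. Pde9a, which degrades cyclic GMP, was at 27.5, 32.2 and 27.6 CPM and at 46.6, 44.7 and 40.7 CPM. Sfxn2, a mitochondrial carrier, was at 4.62, 5.09 and 7.87 CPM and at 14.3, 11.4 and 9.78 CPM. Slc37a2, a sugar phosphate transporter of macrophages, was at 5.57, 5.60 and 6.47 CPM and at 11.3, 9.89 and 8.66 CPM. Their log2 fold changes were 0.56, 0.60, 1.01 and 0.76. All 3 exposed libraries lay above the vehicle libraries in each, which was a condition of the naming rule. Hs3st1, a heparan sulfate sulfotransferase, and Proz, a cofactor of coagulation control, were at 0.77 and 0.82 with separate groups. Hist1h4n, a histone H4 gene, was under the level of 3 counts in all vehicle libraries and in PFOA library 80, and at 6.96 and 2.24 CPM in PFOA libraries 57 and 139; near-identical histone genes make its counts uncertain. Gas7, Pde9a and Slc37a2 overlap genes on the opposite strand.

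Markers of cell types showed few differences in KI lung. For the counts that follow, 1.47% of all genes were higher and 1.13% lower at an unadjusted p under 0.05. Alveolar type 2 markers had 1 of 14 higher at an unadjusted p under 0.05 (Sftpd, log2 fold change 0.49, SE 0.23, and 0.30 without library 102; list median 0.28, and 0.086 without library 80), and type 1 markers 0 of 12 (median 0.20). Club cell markers had 0 of 11 and ciliated cell markers 0 of 16 at an unadjusted p under 0.05, with medians of -0.14 and -0.18. Smooth muscle had 1 of 10, Myocd, on the lower side (median -0.15). Among markers with a mean of at least 1 CPM, library 80 was the lowest of the 6 for 9 of the 11 of club cells. It was also lowest for 11 of the 15 of ciliated cells and 10 of the 10 of smooth muscle, against 17.9% of the 18419 genes. Without library 80 these medians were 0.006, -0.025 and 0.098, and without library 139 they were -0.32, -0.54 and -0.45. Among leukocytes, alveolar macrophage markers had 1 of 14 higher (Chil3, log2 fold change 1.08, SE 0.46; list median 0.34, and 0.061 without library 80), monocyte markers 2 of 17 higher (Lair1, Gas7) and 1 lower (Nr4a1), neutrophil markers 1 of 12 higher (S100a9; median 0.44) and NK and T cell markers 0 of 20 (median 0.21, and 0.052 without library 116). The neutrophil median was 0.24 without library 139 and 0.75 without library 57. The clock list had 1 of 18 (Arntl, log2 fold change 0.75, and 0.13 without library 80) and the cell cycle list 1 of 22 (Aurkb) on the higher side.

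Markers of tissues that lie beside or pass through the lung differed most between libraries. Adipocyte markers had a median of -0.85, cardiac muscle markers of -0.71 and erythroid markers of -0.45, and all 3 medians turned to the other side of 0 without library 102, at 0.24, 0.39 and 0.18. Without library 57 they were -2.04, -1.53 and -1.71. Their summed levels overlapped between groups: adipocyte markers at 106 to 275 CPM on vehicle and 66.4 to 204 CPM on PFOA, cardiac markers at 2293 to 7904 CPM and 628 to 6617 CPM, and erythroid markers at 674 to 2449 CPM and 390 to 2388 CPM. Plin1, which coats lipid droplets of adipocytes, was at 40.3, 3.44 and 4.50 CPM and at 7.08, 0.385 and 0.279 CPM. The defining markers Nppa, Adipoq and Ucp1 were at 0 in 1 or more KI libraries. The part of these tissues in the results on lipid genes was not tested.

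**Figure D4:**
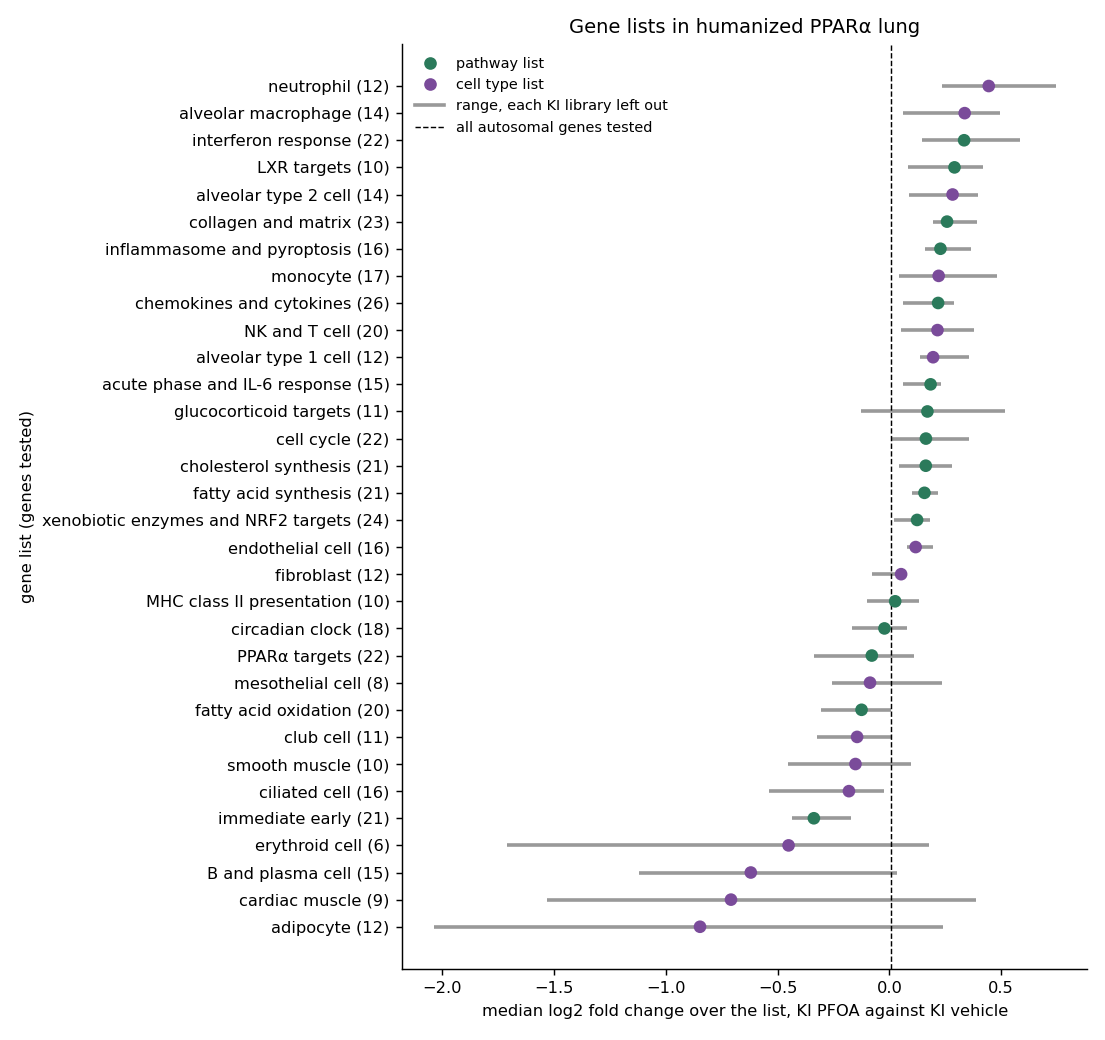
Median log2 fold change (KI PFOA against KI vehicle) over each of the 32 gene lists, with the number of genes tested in parentheses. Points are medians over all 6 KI libraries, grey lines the range when each KI library is left out, and the dashed line the median of all autosomal genes (0.01). Lists for fat, heart and erythroid cells have the widest lines, and the immediate early list stays below 0 throughout.

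The PFOA effect in KI lung was then set against that in KO and WT lung. WT also differed in origin, and KO and WT both differed from KI in the sex of the mice. The part of the receptor in a difference of effects was not tested. Each genotype had vehicle libraries of its own. The libraries labelled KO were 3 PFOA and 3 vehicle, all from females, and those labelled WT were 3 PFOA and 2 vehicle. In WT, PFOA libraries 56 and 65 and vehicle library 122 were from males, and PFOA library 50 and vehicle library 107 from females. The share of autosomal genes at an unadjusted p under 0.05 was 9.83% in KO (3.74% higher and 6.09% lower) and 7.38% in WT (3.13% higher and 4.25% lower), against 2.6% in KI. KO vehicle library 137 and WT vehicle library 122 differed from the rest in RNA composition, with 61.3% and 65.3% of counts in protein-coding genes against 74.4 to 78.5% in the KI libraries. In the test of the difference between effects, 0 genes passed with edgeR for KI against KO (0%; 1422 or 5.45% at an unadjusted p under 0.05) and for KI against WT (0%; 1203 or 4.61%). DESeq2 called 3 genes (0.0115%: Klf2, Gm17829 and the pseudogene Rpl15-ps6) for KI against KO and 1 gene (0.00384%: Bpifa1) for KI against WT. The difference of the log2 effects for Bpifa1 was -22.4. The study counts Bpifa1 among genes that passed its WT thresholds as an artifact of the few vehicle lungs.

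Klf2 had the smallest p of the difference between KI and KO. It was at 52.5, 57.3 and 49.9 CPM in the KO vehicle libraries 137, 145 and 149 and at 102, 70.9 and 110 CPM in the KO PFOA libraries 52, 154 and 155. The groups were thus separate in both genotypes and in opposite directions, as for 0.376% of all genes. In KO the same libraries were also set apart by i5 index, and its part in the Klf2 values was not tested. The KI vehicle libraries were also far above the KO vehicle libraries, while the exposed libraries of KI lay within the range of the exposed libraries of KO. The difference of the log2 effects was -1.70 (SE 0.28, adjusted p = 0.249 from edgeR and 6.20e-04 from DESeq2). In WT, Klf2 was at 93.2 and 69.8 CPM on vehicle and at 95.4, 71.8 and 135 CPM on PFOA, with overlap, and the difference of KI from WT was -1.19 (SE 0.30, adjusted p = 0.999, edgeR).

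Other immediate early genes had values of the same sign. The difference of the KI effect from the KO effect was -1.01 for Klf4, -1.18 for Dusp1, -1.25 for Nr4a1 and -0.77 for Btg2. Of the 21 genes, 6 had a lower effect in KI than in KO at an unadjusted p under 0.05 and 0 a higher one, where 1.92% of all genes were lower and 3.53% higher. Against WT these counts were 4 and 0, where 2.42% were lower and 2.19% higher. The list had a median log2 fold change of 0.18 in KO and 0.03 in WT.

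Mfsd2a was higher on PFOA in KO as it was in KI. It was at 3.46, 1.83 and 3.01 CPM on vehicle and at 7.18, 9.48 and 9.12 CPM on PFOA in KO, and the difference of the effects was 0.46 (SE 0.54). In WT it was at 5.46 and 7.53 CPM on vehicle and at 3.55, 5.56 and 7.20 CPM on PFOA, a difference of KI from WT of 2.36 (SE 0.55, adjusted p = 0.999, edgeR). Mylip was at 1.10, 0.91 and 0.96 on the log2 scale in KI, KO and WT, and Cyp26b1 at 1.96, 1.16 and 1.03.

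Lymphocyte genes had smaller PFOA effects in KI than in the other genotypes, and against KO this was also seen for monocyte and neutrophil markers. At an unadjusted p under 0.05, 13 of 20 NK and T cell markers were higher on PFOA in KO and 13 in WT, and 0 were lower in either, against 0 in KI. Over all genes, 3.74% were higher in KO, 3.13% in WT and 1.47% in KI. The list medians were 1.06 in KO, 1.28 in WT and 0.21 in KI. For the difference of effects itself, 4 of the 20 were lower in KI than in KO and 6 lower than in WT at an unadjusted p under 0.05. Over all genes, 1.92% were lower in KI than in KO and 2.42% lower than in WT. Prkcq, a kinase of T cell receptor signaling, was at 13.4, 15.5 and 13.5 CPM on vehicle and at 15.9, 13.5 and 11.9 CPM on PFOA in KI. In WT it was at 7.06 and 9.01 CPM on vehicle and at 17.7, 18.4 and 20.8 CPM on PFOA, and in KO at 11.1, 11.3 and 12.3 CPM and at 17.1, 15.4 and 22.6 CPM. The difference of KI from WT was -1.28 (SE 0.28, adjusted p = 0.999, edgeR). Il27ra, a cytokine receptor of lymphocytes, had a difference from WT of -1.91 (SE 0.46), and the lymphocyte genes Sla, Satb1 and Cd5 had differences from KO of -1.26, -1.13 and -1.91 (SE 0.31, 0.28 and 0.48). B and plasma cell markers had 7 of 15 lower effects in KI than in KO and 6 lower than in WT by the same measure. The KI vehicle level of that list was highest in library 102. None of these genes passed with edgeR. Prkcq and Il27ra were among the 6 genes with the smallest p of the difference from WT. Sla, Satb1 and Cd5 were among the 6 for the difference from KO, so the values of these genes are not separate support for the lists. Prkcq, Il27ra, Sla and Satb1 overlap genes on the opposite strand.

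**Figure D5:**
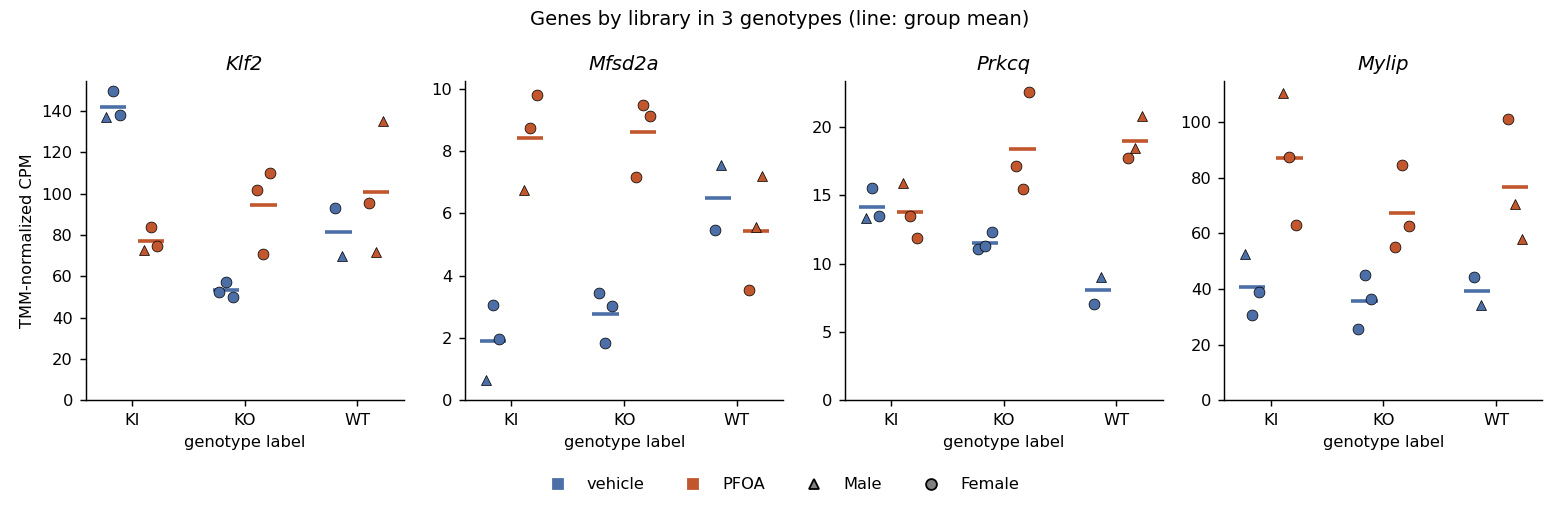
TMM-normalized CPM (linear axis from 0) of Klf2, Mfsd2a, Prkcq and Mylip in every library of KI, KO and WT, with vehicle in blue and PFOA in orange, triangles for males, circles for females and a line at each group mean. Klf2 is lower on PFOA in KI and higher in KO, Mfsd2a is higher on PFOA in KI and KO, Mylip has a higher mean on PFOA in all 3 genotypes, and Prkcq has overlapping groups in KI and separate groups in KO and WT.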

How the data were processed

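Total RNA of whole mouse lung was sequenced with a stranded total RNA kit. The authors trimmed the reads, used Partek Flow with STAR 2.6 for alignment to mm10, estimated reads per gene by expectation maximization, and deposited these estimated counts without normalization. The annotation release and the use of strand are not given in the sources used here; gene positions were taken from GENCODE M21. The estimated counts were rounded. The test covered 26946 genes totalling 20 or more counts (4299 were left out), with groups from the labels.

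edgeR 4.0.16 (R 4.3.3) fitted 1 coefficient per group over all 17 libraries after TMM scaling, and used the quasi-likelihood F-test with Benjamini-Hochberg adjustment over all genes tested. A call needed an adjusted p under 0.2 and a fold over 2. The other groups enter the KI test through the shared spread. DESeq2 1.42.0 was the alternative, next to other scalings, filters, covariates (sex, i5 index), and fits without each library; 2 alternatives were added after the values were seen. Named genes were the 25 that the study names, calls in any alternative with all KI libraries, the 15 protein-coding genes per direction with the smallest p among those with at least 1 CPM and separate groups, list members with an unadjusted p under 0.05 or with the 3 highest levels, and the 6 smallest p of each difference of effects. Members and lists were chosen with earlier results of these data known. No set test was run. Some results are not reported here. Promoters are from RefSeq (GRCm38.p6).

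The test was tried on 1 simulated draw of counts of 26521 genes, of which 200 were changed 4-fold in KI PFOA. From it edgeR recovered 177 with 14 other calls. The 200 were taken from genes with a mean of at least 1 CPM. The draw used a spread set by the level of the gene and held no outlying library. The share recovered therefore does not give the power of the test in these data. Where nothing was changed (26513 genes), edgeR made 1 call and DESeq2 4. Replicate KI libraries differed by more than sampling noise (chi-square per degree of freedom 8.06 to 15.8). Each library is 1 mouse, and intervals such as the level of 3 counts cover counting error only.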

Additional observations from a re-analysis of the deposited data

Results flagged for a closer look

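In KI and KO, or in KI and WT, every exposed library lay on one side of every vehicle library for the genes below, and the direction was opposite in the other genotype. Such opposite separation was found for 98 of 26073 genes (0.376%) in KI and KO and for 201 (0.771%) in KI and WT. In KO the i5 index also set the exposed libraries apart from the vehicle libraries, and its part was not tested. For KI minus KO, the differences of the log2 effects were -1.70 for Klf2, -0.77 for Btg2, 1.34 for Sfxn2 and -1.91 for Cd5. For KI minus WT, they were -0.76 for Id1, -0.80 for Trim65 and -1.43 for Cd5. None passed with edgeR's quasi-likelihood test of the difference, in which the adjusted p was 0.249 for Klf2 and at least 0.909 for the others named here; Klf2 passed with DESeq2 (adjusted p = 6.20e-04).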

How the results depend on the processing

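With edgeR, 0 KI genes were called in all planned settings that keep every library, and Mfsd2a was the 1 gene called by DESeq2 with and without its default filters. Leaving out 1 library gave 0 to 5 KI calls: 2 without KI vehicle 116 (Gm7846 and Mfsd2a) and 5 without KI PFOA 139 (6820402A03Rik, Banp, Doc2b, Galnt15 and Gm15793). A fit of the 6 KI libraries with sex as a covariate, added after the values were seen, gave 4. The count at an unadjusted p under 0.05, 678, became 1251 without KO vehicle 137 and WT vehicle 122, also chosen after the values were seen, still with 0 calls, and 546 to 1007 on leaving out 1 library.

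For KI minus KO, DESeq2 without filters called 3 genes and edgeR with no filter 1 (Klf2, adjusted p = 0.151), and leaving out 1 library gave 0 to 7 calls, the 7 without KI vehicle 116 and 1 each without KI PFOA 139, KO vehicle 149, KO PFOA 154, WT PFOA 56 or WT PFOA 65. For KI minus WT, DESeq2 called 1, and leaving out 1 library gave 0 to 1, the 1 call being Gm7846 without KI vehicle 116 and Gm49391 without KI PFOA 80. Fits that leave a WT vehicle arm of 1 library are not reported for this difference.

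The log2 fold change turned to the other direction for Nr4a3 (0.060 without KI vehicle 116; -1.56 to 0.060 on leaving out 1 library), Nppa (2.10 in female libraries only and 3.39 without KI vehicle 102; -7.66 to 3.39), Lep (0.20 without KI vehicle 102; -4.15 to 0.20), Nlrp3 (-0.015 without KI PFOA 139; -0.015 to 0.61) and Prkcq (0.026 without KI vehicle 116 and 0.054 without KI PFOA 139; -0.16 to 0.054). The causes were not tested. No paired analysis was possible because library numbers name single mice and are not shared between groups. At this depth, genes near the level of 3 counts (0.332 to 0.484 CPM) could not be compared.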
